A study of Mus musculus with 19 samples.

Results

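The Kruppel-like factor (KLF) family was followed through 9 of its genes, Klf2, Klf3, Klf4, Klf5, Klf6, Klf7, Klf9, Klf10 and Klf13, out of the 55487 genes in the count table. The members were chosen by name: each Ensembl row was matched to its mouse symbol, and the level of Klf6 was set beside the levels of its relatives. All 9 passed the filter on low counts. Klf6 is among the genes that the study itself followed in these samples, so its course here is not independent evidence for it.

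KLF proteins are transcription factors with zinc fingers at their carboxy terminus, which bind GC-rich and CACCC sequences in promoters and enhancers. Depending on the partners they recruit, they activate or repress. Klf6 was cloned from hepatic stellate cells (HSCs), the vitamin A-storing cells of the liver, as a gene switched on early in their activation. Klf2 and Klf4 are best known from endothelium, where fluid shear stress induces them, and both also belong to the genes that many cells induce rapidly after stimulation. Klf9 is a classical target of glucocorticoid and thyroid hormone, and Klf10 was first described as an early gene induced by TGF beta.

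RNASeq was measured in HSCs sorted for their ultraviolet fluorescence. The mice were healthy male Balb/c animals, 23 to 24 weeks old. Uncultured cells served as the 0 h group (n = 2). Cultured groups were kept on collagen in 24-well plates, in medium with serum, for 3, 6, 12, 18 or 96 h (n = 3 each) or for 24 h (n = 2). The animals were untreated and carried no transgene, and every sample pooled 2 technical repeats. The repeats are labelled M1, M2 and M3, without a statement of what the number marks: 0 h had M2 and M3, and 24 h had M1 and M2. The labels give M1 and M3 one isolation date and M2 another. All 6 comparisons with 0 h share the same 2 uncultured samples.

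The 19 libraries held 2073171 to 7690892 counts, and levels are given as CPM (counts relative to the library total, scaled by TMM). A library of 3' ends reads the end of a transcript whatever its length, so CPM were compared between genes without division by length. Without molecular identifiers, amplified copies could not be told from separate transcripts. Of 9 stellate markers, 9 had counts in every sample at 6 of the 7 timepoints and 8 at 12 h, and their summed level was 30900 to 35900 CPM at 0 h and 2640 to 3040 CPM at 96 h. Markers of hepatocytes and of Kupffer cells were highest early. The hepatocyte list of 8 genes summed to 3130 to 7030 CPM at 0 h and 26.6 to 78.3 CPM at 96 h, and the list of 9 Kupffer cell and macrophage genes to 342 to 365 and 10.0 to 23.2 CPM. Cholangiocyte markers stayed between 0 and 19.1 CPM, and lymphocyte markers between 0 and 8.29 CPM. The list of smooth muscle and mesothelial markers reached 78.3 to 93.8 CPM at 96 h after 12.3 to 20.1 CPM at 0 h. Its mesothelial genes, Msln and Upk3b, had no counts in any sample, so the rise was in its smooth muscle genes. The part of other liver cells in the results below was not tested. In bulk samples, fewer cells of a type and less RNA per cell cannot be told apart.

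The family changed its make-up in culture. At 0 h, the leading members were Klf2, with 22.8 to 26.9% of the summed CPM of the 9 genes, and Klf9, with 22.2 to 25.6%, whereas Klf6 held 6.70 to 8.44%. Klf6 held 23.2 to 26.6% at 3 h, 38.2 to 44.6% at 6 h, 36.7 to 44.2% at 12 h, 42.5 to 47.5% at 18 h and 42.2 to 43.5% at 24 h. From 6 h to 24 h it was thus the most abundant member in every sample. At 96 h its share was 16.5 to 32.1%, and that of Klf3 18.2 to 25.8%. The summed level of the 9 genes was 2170 to 2810 CPM at 0 h, 4040 to 5500 CPM at 6 h and 727 to 808 CPM at 96 h, so that the 96 h samples lay below all others.

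**Figure D1:**
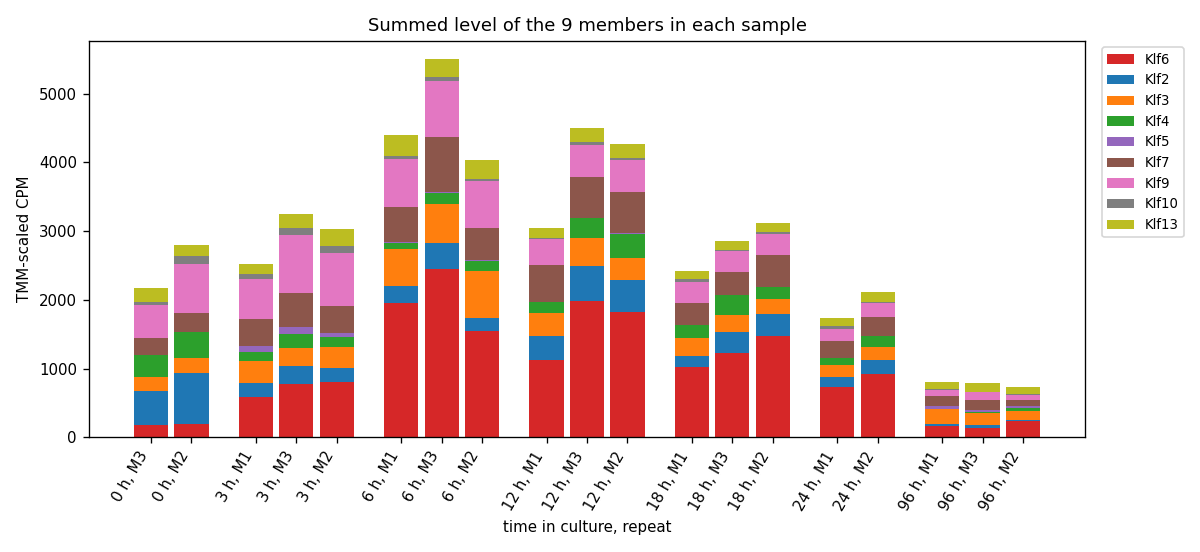
Stacked bars give the TMM-scaled CPM of the 9 members in each of the 19 samples, labelled by time in culture and repeat. Klf6 (red) goes from 6.70 to 8.44% of the bar at 0 h to 38.2 to 44.6% at 6 h, and the 3 bars at 96 h, at 727 to 808 CPM, are the lowest.

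A gene counted as called when its adjusted p was below 0.1 and its fold change above 2 (edgeR's quasi-likelihood test with Benjamini-Hochberg adjustment over 15138 genes). At 3 h, 3 of 9 members were called, 2 higher (Klf5 and Klf6) and 1 lower (Klf2), where 5.58% of all genes were called (4.19% higher and 1.39% lower). At 6 h, 5 of 9 were called, with Klf3, Klf6 and Klf7 higher and Klf2 and Klf4 lower, against 11.3% of all genes (6.98% higher and 4.35% lower). At 12 h, the 2 called members (Klf6 and Klf7 higher) stood beside 17.7% of all genes (8.6% higher and 9.1% lower), so that the members' share was near the background. At 18 h and at 24 h, Klf6 was higher and Klf2 and Klf9 were lower, against 15.9% of all genes at 18 h (7.64% higher and 8.21% lower) and 9.51% at 24 h (5.65% higher and 3.86% lower). At 96 h, 1 member was higher (Klf5) and 5 were lower (Klf2, Klf4, Klf7, Klf9 and Klf10), against 10.9% of all genes (5.83% higher and 5.03% lower). The median log2 fold change of the 9 members was 0.65 at 6 h and -1.02 at 96 h, or 0.47 and -1.83 without Klf5, where the medians of all genes were 0.00 and 0.07. These counts rest on few samples: without the 0 h sample of M2, 1 member was called at 3 h and 1 at 18 h, and 3 were called at 6 h and at 96 h. Likewise, 3 were called at 6 h without the 0 h sample of M3 or the 6 h sample of M1, and 3 at 96 h without the 96 h sample of M2.

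**Figure D2:**
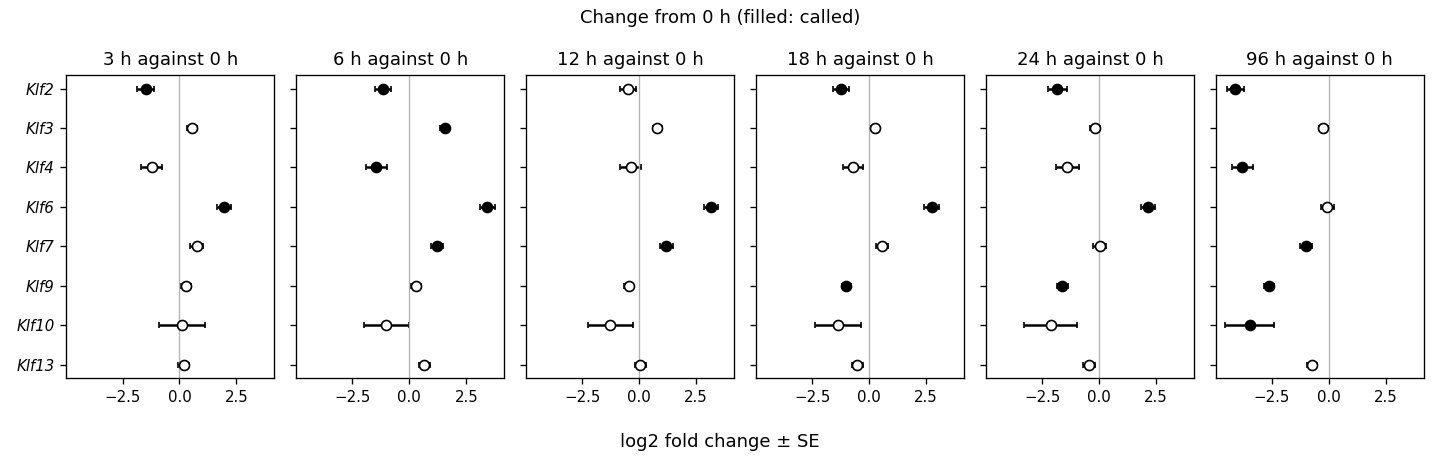
Each panel gives the log2 fold change from 0 h with its standard error for 8 members at 1 timepoint (n = 3, or 2 at 24 h, against 2 at 0 h), filled where the member was called. Klf6 lies to the right of 0 from 3 h (1.97) to 24 h (2.15) and at -0.08 at 96 h, while Klf2 lies to the left at each timepoint; Klf5 is left out because its 0 h samples hold no counts.

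Klf2, Klf4 and Klf6 carried the clearest contrast, and their upstream sequence is shown here so that it can be read beside their courses: Klf6 was called higher and Klf2 and Klf4 lower at 6 h. The sequences are the 250 bases before the RefSeq start of each gene in GRCm38.p6, 5' to 3' on the strand of the gene. Klf2 covers chr8:72318812-72319061 (plus strand), Klf4 chr4:55532476-55532725 (minus strand) and Klf6 chr13:5861239-5861488 (plus strand). Capitals mark exact matches, on either strand, to 4 motifs: the GC box GGGCGG, the CCAAT box CCAAT, the MEF2 box CTANNNNTAG and the cyclic AMP response element TGACGTCA.
Klf2: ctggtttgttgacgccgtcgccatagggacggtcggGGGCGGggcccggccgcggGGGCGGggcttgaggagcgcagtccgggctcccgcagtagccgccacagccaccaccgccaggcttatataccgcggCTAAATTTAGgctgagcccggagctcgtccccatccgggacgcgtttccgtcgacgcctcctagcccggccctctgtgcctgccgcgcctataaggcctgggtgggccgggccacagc
Klf4: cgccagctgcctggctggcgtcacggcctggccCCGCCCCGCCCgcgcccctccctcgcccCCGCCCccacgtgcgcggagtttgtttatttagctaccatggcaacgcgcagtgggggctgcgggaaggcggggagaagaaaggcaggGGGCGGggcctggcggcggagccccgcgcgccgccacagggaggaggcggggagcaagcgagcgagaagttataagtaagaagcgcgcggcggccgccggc
Klf6: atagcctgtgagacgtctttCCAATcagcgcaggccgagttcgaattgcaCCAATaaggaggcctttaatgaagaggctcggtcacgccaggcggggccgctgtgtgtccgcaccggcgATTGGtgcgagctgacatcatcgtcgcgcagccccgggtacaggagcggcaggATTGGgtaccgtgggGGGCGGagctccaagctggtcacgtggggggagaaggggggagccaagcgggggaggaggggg
Klf2 held 2 GC boxes and 1 MEF2 box, CTAAATTTAG, which began 118 bases before the start. Klf4 held 4 GC boxes, and a pair of them overlap by 1 base. Klf6 held 4 CCAAT boxes and 1 GC box.

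RefSeq promoters were matched for 7 of the 9 members (not Klf5 and Klf10). The GC box was found in 6 of these 7 and in 32.7% of 32851 promoters of the same length, and the CCAAT box in 3 (Klf6, Klf9 and Klf13) and in 33.8%. Klf2 was the 1 member with the MEF2 box, which 3.20% of all promoters held. None of the 7 held the cyclic AMP response element, found in 1.55%. The GC content of these 250 bases went from 59.2% (Klf7) to 78.4% (Klf3), with 64.8% for Klf6. A match describes the letters and is not a site of binding.

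Klf6 (chr13:5861482-5870394, plus strand, GRCm38, ENSMUSG00000000078) was low in uncultured cells, high by 6 h and low again at 96 h. Its level was 183 and 188 CPM at 0 h, 586, 780 and 809 CPM at 3 h, and 1950, 2450 and 1540 CPM at 6 h. It was 1120, 1990 and 1820 CPM at 12 h, 1030, 1220 and 1480 CPM at 18 h, and 729 and 922 CPM at 24 h. At 96 h it was 162, 130 and 233 CPM. Each sample from 3 to 24 h lay above all samples at 0 h and at 96 h, while the 0 h and 96 h samples overlapped. The log2 fold change from 0 h was 1.97 ± 0.30 (SE) at 3 h (edgeR, adjusted p = 0.000897), 3.42 ± 0.33 at 6 h (adjusted p = 5.53e-06) and 3.15 ± 0.32 at 12 h (adjusted p = 5.14e-06). It was 2.75 ± 0.32 at 18 h (edgeR, adjusted p = 1.83e-05), 2.15 ± 0.32 at 24 h (adjusted p = 0.000335) and -0.08 ± 0.28 at 96 h (adjusted p = 0.944). Ranked by mean log2 CPM among 15138 genes, Klf6 stood at place 899 at 0 h, 213 at 3 h and 49 at 6 h, and at place 1028 at 96 h.

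The order of the Klf6 means was 6 h (1980 CPM), 12 h (1640 CPM), 18 h (1240 CPM), 24 h (825 CPM), 3 h (725 CPM), 0 h (185 CPM) and 96 h (175 CPM). Klf6 rose from 3 h to 6 h by 1.45 ± 0.26 on the log2 scale (edgeR, adjusted p = 0.00443), where 2.5% of all genes were called higher. The later steps were smaller: the differences were -0.27 at 12 h against 6 h (edgeR, adjusted p = 0.725), -0.40 at 18 h against 12 h (adjusted p = 0.643) and -0.59 at 24 h against 18 h (adjusted p = 0.72). The samples of 6 h and 12 h overlapped, as did those of 12 h and 18 h. From 24 h to 96 h, Klf6 fell by 2.24 on the log2 scale (SE 0.28, edgeR, adjusted p = 0.000332). In repeats M1 and M3 the highest sample was that of 6 h, and in M2 that of 12 h. None of these calls was lost when any 1 of the 19 samples was left out.

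**Figure D3:**
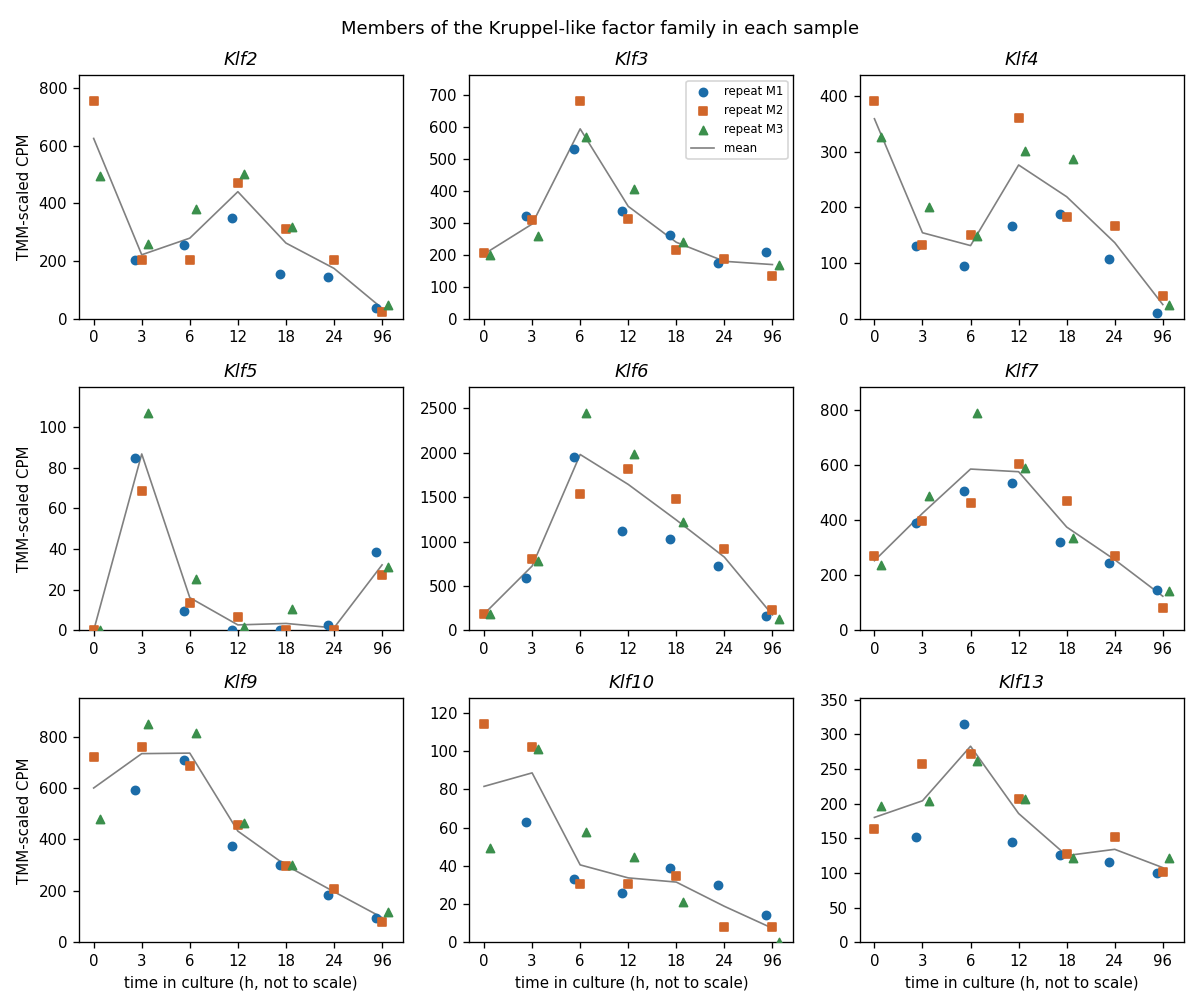
Each panel gives the TMM-scaled CPM of 1 member in every sample (y axis from 0) against the time in culture, with points for repeats M1, M2 and M3 and a line through the means. Klf6 peaks at 6 to 12 h at up to 2450 CPM, Klf2 is at 495 and 755 CPM at 0 h and at 23.5 to 48.5 CPM at 96 h, and Klf5 is seen mainly at 3 h and 96 h.

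Klf2 and Klf4 had their highest means in uncultured cells and were called lower at 6 h and at 96 h. Klf2 (chr8:72319033-72321656, plus strand) was at 495 and 755 CPM at 0 h, 203, 260 and 202 CPM at 3 h, and 255, 381 and 202 CPM at 6 h. It was at 349, 501 and 471 CPM at 12 h, 156, 319 and 312 CPM at 18 h, and 144 and 205 CPM at 24 h. At 96 h it was at 36.4, 48.5 and 23.5 CPM, below every other sample. The 0 h samples lay above all samples of 3, 6, 18, 24 and 96 h, and overlapped with those of 12 h. Klf2 was called lower than at 0 h at 3 h (log2 -1.49 ± 0.36, edgeR, adjusted p = 0.0233), 6 h (-1.16 ± 0.36, adjusted p = 0.0512), 18 h (-1.25 ± 0.36, adjusted p = 0.0284) and 24 h (-1.84 ± 0.41, adjusted p = 0.00848). At 12 h the difference was -0.50 ± 0.36 (edgeR, adjusted p = 0.384), and 12 h was not called different from 6 h (0.66 ± 0.32, adjusted p = 0.412, with overlapping samples). At 96 h it was -4.11 ± 0.38 (adjusted p = 3.26e-06), and Klf2 fell from 24 h to 96 h by 2.27 on the log2 scale (adjusted p = 0.00262).

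Without the 0 h sample of M2, the highest Klf2 sample, the adjusted p of Klf2 (edgeR) was 0.275 at 3 h, 0.361 at 6 h and 0.225 at 18 h. Other single samples also ended Klf2 calls: at 6 h those of M1 (adjusted p = 0.135) and M2 (0.14), at 18 h that of M1 (log2 -0.99) and at 24 h that of M1 (adjusted p = 0.129). The 6 h call was also lost with only the 0 h and 6 h samples in the fit (adjusted p = 0.13). The calls of Klf2 at 96 h, against 0 h and against 24 h, held without each of the 19 samples.

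Klf4 (chr4:55527143-55532466, minus strand), one of the factors used to reprogram cells to pluripotency, was also highest by mean at 0 h. It was at 327 and 391 CPM at 0 h, 131, 200 and 132 CPM at 3 h, and 94.9, 149 and 150 CPM at 6 h. It was at 167, 301 and 360 CPM at 12 h, 188, 287 and 182 CPM at 18 h, and 107 and 166 CPM at 24 h. At 96 h it was at 10.0, 24.8 and 41.4 CPM. All 3 samples of 12 h lay above those of 6 h, and the 12 h and 0 h samples overlapped. Klf4 was called lower than at 0 h at 6 h (log2 -1.45 ± 0.45, edgeR, adjusted p = 0.0535) and at 96 h (-3.81 ± 0.47, adjusted p = 5.85e-05), and lower at 96 h than at 24 h (-2.42 ± 0.46, adjusted p = 0.00838). The differences were -1.22 ± 0.45 at 3 h (edgeR, adjusted p = 0.179; DESeq2, adjusted p = 0.0441) and -1.39 ± 0.50 at 24 h (edgeR, adjusted p = 0.124; DESeq2, adjusted p = 0.0115). From 6 h to 12 h the difference was 1.07 ± 0.41 (edgeR, adjusted p = 0.278; DESeq2, adjusted p = 0.0969). The 6 h call was lost without the 0 h sample of M2 (edgeR, adjusted p = 0.246) or M3 (0.116) or the 6 h sample of M1 (0.167), and the 96 h against 24 h call without the 24 h sample of M2 (0.137).

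Over the 19 samples, the gene of at least 50 CPM whose log2 CPM was most like Klf4 was Klf2 (Pearson r = 0.899, Spearman rho = 0.825), a description of samples that share their 7 timepoints. Klf2 in turn was most like 2900097C17Rik (Pearson r = 0.913).

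Since Klf2 and Klf4 are known endothelial genes, markers of sinusoidal endothelium were read beside them. The 11 markers summed to 999 to 1460 CPM at 0 h, 1190 to 3680 CPM at 3 h, 283 to 1040 CPM at 6 h, 178 to 776 CPM at 12 h, 184 to 639 CPM at 18 h, 188 to 546 CPM at 24 h and 14.7 to 277 CPM at 96 h. The markers did not move alike. Stab2 was at 50.7 and 116 CPM at 0 h and had 0 counts in every 96 h sample, Lyve1 had 0 counts at both 0 h and 96 h, and Cdh5 was at 40.7 and 28.1 CPM at 0 h but at 100 to 270 CPM at 18 h. The highest sum was in the 3 h sample of M1, where Klf2 was at 203 CPM. M1, which has no 0 h sample, had the highest endothelial sum at each of its 6 timepoints. Klf2 was lowest in M1 at 12, 18 and 24 h, but not at 3, 6 or 96 h. Klf4 was lowest in M1 at 3 h (131 against 200 and 132 CPM), 6, 12, 24 and 96 h, but not at 18 h. Nos3, the endothelial nitric oxide synthase, had counts in 1 of 19 samples, the 3 h sample of M1 (23.9 CPM). The 8 immediate early comparators, Fos and Egr1 among them, summed to 11600 to 16300 CPM at 0 h, 7550 to 9230 CPM at 3 h and 393 to 575 CPM at 96 h. The 8 did not move alike. Fos was at 2290 and 3190 CPM at 0 h and at 247 to 327 CPM at 3 h. Egr1 was at 1470 and 1830 CPM at 0 h, 1230 to 1450 CPM at 3 h and 1330 to 2540 CPM at 6 h. Of the 8, 1 was called lower at 3 h and 4 at 6 h, against 1.39% and 4.35% of all genes. The part of endothelial cells, or of this early response, in the levels of Klf2 and Klf4 was not tested.

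**Figure D4:**
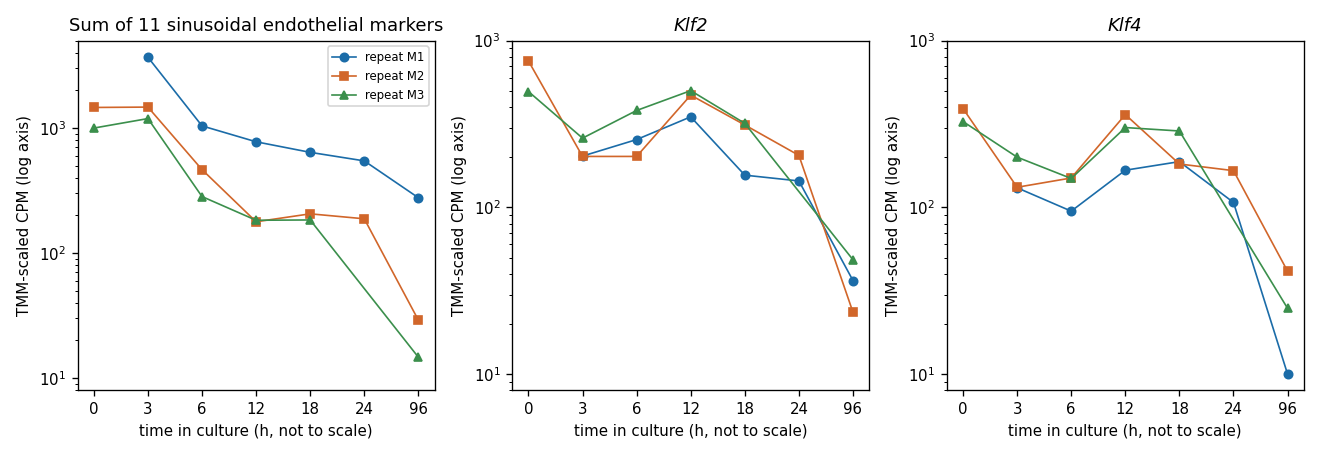
The summed level of 11 sinusoidal endothelial markers and the levels of Klf2 and Klf4 are given as TMM-scaled CPM on log axes against the time in culture, with 1 line per repeat. The line of M1, which has no 0 h sample, is the highest in the marker panel (3680 CPM at 3 h, 277 CPM at 96 h). In the Klf2 panel it lies at 349 CPM at 12 h against 471 and 501 CPM, and at 36.4 CPM at 96 h against 48.5 and 23.5 CPM.

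Klf3 was called higher at 6 h, and Klf7 at 6 h and 12 h. Klf3 (chr5:64803388-64832901, plus strand), a factor that recruits the corepressor CtBP, was at 199 and 205 CPM at 0 h, 320, 258 and 310 CPM at 3 h, and 531, 569 and 681 CPM at 6 h. It was at 336, 405 and 313 CPM at 12 h, 263, 239 and 215 CPM at 18 h, 173 and 186 CPM at 24 h, and 208, 168 and 132 CPM at 96 h. The 6 h samples lay above all others, in each of the 3 repeats. Klf3 was called higher at 6 h than at 0 h (log2 1.55 ± 0.21, edgeR, adjusted p = 0.000156) and higher at 6 h than at 3 h (1.00 ± 0.18, adjusted p = 0.0053). At 12 h, the difference from 0 h of 0.80 ± 0.21 passed the adjusted p (edgeR, 0.015) but not the fold. The 6 h against 3 h call lies on the fold limit: with 1 sample left out the difference was down to 0.82, and 9 of 19 such fits fell short of the limit, with adjusted p of 0.0495 or less. It was 0.86 with DESeq2 and 0.96 without the filter. C230096K16Rik, an annotated transcript on the same strand within Klf3, held 1956 counts over the 19 samples, and reads could be shared between them.

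Klf7 (chr1:64029447-64122282, minus strand), known from neuronal and adipose development, was at 237 and 270 CPM at 0 h, 391, 489 and 397 CPM at 3 h, and 505, 791 and 463 CPM at 6 h. It was at 535, 589 and 606 CPM at 12 h, 321, 337 and 469 CPM at 18 h, 244 and 270 CPM at 24 h, and 146, 145 and 82.2 CPM at 96 h. All samples of 3 to 18 h lay above both samples of 0 h, and all of 96 h below them. Klf7 was called higher at 6 h (log2 1.21 ± 0.28, edgeR, adjusted p = 0.00972) and 12 h (1.19 ± 0.28, adjusted p = 0.00789), and lower at 96 h than at 0 h (-1.02 ± 0.26, adjusted p = 0.0212) and at 24 h (-1.05 ± 0.26, adjusted p = 0.0525). These calls lie near the fold limit. At 6 h the call was lost without the 0 h sample of M3 (adjusted p = 0.126) or the 6 h sample of M3 (log2 0.93), and DESeq2 gave 0.98 at 6 h and 0.95 at 12 h. At 96 h, the difference of Klf7 from 0 h was -0.88 scaled by library size, -0.80 without the 96 h sample of M2 and -0.93 without the 0 h sample of M2. Against 24 h, it was -0.98 with DESeq2 and -0.82 without the 96 h sample of M2, and the adjusted p (edgeR) was 0.173 and 0.452 without the 24 h samples of M1 and M2 and 0.132 with only the 2 groups in the fit.

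Klf9 and Klf13, a pair of related factors that bind the repressor Sin3a, had their lowest mean levels at 96 h. Klf9 (chr19:23141226-23168134, plus strand) was at 481 and 719 CPM at 0 h, 594, 847 and 760 CPM at 3 h, and 709, 814 and 684 CPM at 6 h. It was at 375, 465 and 457 CPM at 12 h, 302, 299 and 296 CPM at 18 h, 184 and 209 CPM at 24 h, and 92.9, 118 and 77.8 CPM at 96 h. From 6 h on, each group of Klf9 samples lay below the one before it, without overlap. Klf9 was lower than at 0 h at 18 h (log2 -1.0 ± 0.21, edgeR, adjusted p = 0.00396), 24 h (-1.61 ± 0.24, adjusted p = 0.000304) and 96 h (-2.64 ± 0.21, adjusted p = 7.7e-07), and at 96 h lower than at 24 h (-1.03 ± 0.21, adjusted p = 0.0142). At 18 h the change lay on the fold limit: it was -0.75 scaled by library size or without the 0 h sample of M2, with an adjusted p of 0.0174 and 0.0769. The 96 h against 24 h call was lost without the 24 h sample of M2 (adjusted p = 0.238) or the 96 h sample of M2 (log2 -0.90), and with DESeq2 (-0.96).

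Klf13 (chr7:63886351-63938915, minus strand) was at 196 and 164 CPM at 0 h, 152, 203 and 257 CPM at 3 h, and 314, 262 and 272 CPM at 6 h. It was at 144, 206 and 207 CPM at 12 h, 126, 122 and 127 CPM at 18 h, 116 and 152 CPM at 24 h, and 99.8, 121 and 102 CPM at 96 h. The 6 h samples were the highest in each repeat. No comparison of Klf13 with 0 h was called: the largest were 0.65 ± 0.24 at 6 h (edgeR, adjusted p = 0.114) and -0.74 ± 0.23 at 96 h (adjusted p = 0.0643, under the fold limit). From 6 h to 96 h, Klf13 fell by 1.39 on the log2 scale (SE 0.21, edgeR, adjusted p = 0.000373).

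Nr3c1, the gene of the glucocorticoid receptor, a known inducer of Klf9, was at 254 and 248 CPM at 0 h and 68.7 to 77.1 CPM at 96 h. It was called lower at 18 h (log2 -1.17 ± 0.23, edgeR, adjusted p = 0.00241), 24 h (-1.05 ± 0.26, adjusted p = 0.0161) and 96 h (-1.80 ± 0.23, adjusted p = 7.16e-05). Of the 7 genes listed as the receptor and its targets, none was called higher at any timepoint and 1 to 2 were called lower at each. Of all genes, 1.39% (3 h) to 9.1% (12 h) were called lower. Dusp1, a phosphatase gene that is also an immediate early gene, was lower at all 6 timepoints (log2 fold changes of -3.59 to -1.89). The part of the receptor in the course of Klf9 was not tested.

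Klf5 and Klf10 were the members with few counts. Klf5 (chr14:99298691-99315036, plus strand), a factor of proliferating epithelium and of smooth muscle remodelling, had 0 counts in both samples at 0 h, where 3 counts, taken as the floor, correspond to 1.5 and 0.754 CPM. It was at 84.9, 107 and 68.3 CPM at 3 h (256, 490 and 285 counts), 9.49, 25.4 and 13.5 CPM at 6 h, and 0 to 10.4 CPM in the 8 samples of 12, 18 and 24 h. At 96 h it was again at 38.4, 31.2 and 27.1 CPM (134, 185 and 141 counts). Klf5 was thus seen in all 3 repeats at 3, 6 and 96 h, and at 0 counts in 4 of the 8 samples between 12 h and 24 h. The mean stood 57.8-fold above the higher floor at 3 h, 10.8-fold at 6 h and 21.5-fold at 96 h. The floor covers counting error only, so these folds are not lower bounds on the change from 0 h. A gene seen in its group could read 0 in 1 library: Sin3a was at 44.7, 0 and 39.9 CPM at 12 h. Against 0 h, the adjusted p of Klf5 (edgeR) was 0.0813 at 3 h, 0.112 at 6 h and 0.0824 at 96 h. The calls at 3 h and 96 h are near the threshold: with the date as a covariate the adjusted p was 0.106 at 3 h and 0.104 at 96 h. With 1 sample left out, 8 of 19 fits at 3 h and 9 of 19 at 96 h missed it, and the adjusted p without a 0 h sample was 0.31 and 0.361 at 3 h and 0.268 and 0.345 at 96 h.

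Klf10 (chr15:38291463-38300706, minus strand) was at 49.2 and 114 CPM at 0 h, 63.0, 101 and 102 CPM at 3 h, and 33.2, 57.9 and 30.4 CPM at 6 h. It was at 25.7, 44.7 and 30.7 CPM at 12 h, 39.0, 20.9 and 34.6 CPM at 18 h, and 29.8 and 7.84 CPM at 24 h. At 96 h it was at 14.1 and 7.89 CPM and at 0 counts in M3. The 96 h samples lay below both of 0 h, which themselves differed from each other by a larger ratio than for any other member with counts there. Klf10 was called lower at 96 h (log2 -3.49 ± 1.06, edgeR, adjusted p = 0.0516), but not without the 0 h sample (adjusted p = 0.289) or the 96 h sample (0.129) of M2, nor with only the 2 groups in the fit (0.209). It was also the 1 member that did not pass the test over the 7 timepoints (edgeR, adjusted p = 0.14), which the other 8 and 27.4% of all genes passed. Of 5 genes of the Smad family, which acts in TGF beta signalling, Smad4 was called higher at 3 h (log2 1.46 ± 0.38, edgeR, adjusted p = 0.0404), 6 h and 18 h. Smad6 was called lower at 6 h.

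Between successive timepoints in culture, members were called from 3 h to 6 h and from 24 h to 96 h. Each of these steps began with a change of medium, after 3 h and after 24 h. Time in culture and fresh medium therefore cannot be told apart there. From 3 h to 6 h, Klf3 and Klf6 were higher, where 2.5% of all genes were called higher. From 6 h to 12 h (1.84% of all genes called), 12 h to 18 h (0.225%) and 18 h to 24 h (0.0396%), edgeR called 0 of 9 members. DESeq2 called 1 member from 6 h to 12 h and 0 at the other 2 steps. From 6 h to 12 h, Klf3 (log2 -0.76, edgeR, adjusted p = 0.0547) and Klf9 (-0.77, adjusted p = 0.0651) passed the adjusted p but not the fold. From 24 h to 96 h, 5 of 9 members were called lower, Klf2, Klf4, Klf6, Klf7 and Klf9, and none higher, where 1.35% of all genes were called lower. From 6 h to 96 h, 7 of 9 were lower against 7.46% of all genes, and the remaining members were Klf5 (log2 1.00, edgeR, adjusted p = 0.77) and Klf10 (-2.48, adjusted p = 0.121). The 5 calls from 24 h to 96 h were 2 without the 24 h sample of M2, 3 without the 96 h sample of M2, and 3 with DESeq2.

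Whether each relative changed differently from Klf6 was tested on the log2 ratio of the relative to Klf6 in each sample (limma, adjusted over all 15137 other genes). At 6 h against 0 h, 7 of 8 relatives changed less than Klf6, against 80.3% of all genes whose change differed, so that the count says little about the family. The difference was -1.85 for Klf3 (95% interval -2.67 to -1.02, limma, adjusted p = 0.000602), -2.22 for Klf7 (-2.99 to -1.44, adjusted p = 6.19e-05) and -4.86 for Klf4 (-5.80 to -3.92, adjusted p = 1.8e-07). Klf3 and Klf7, the other 2 members called higher at 6 h, therefore rose less than Klf6, and Klf2 (-4.57) and Klf4 stood furthest from it. At 3 h, 7 of 8 differed (background 47.2%), at 12 h, 18 h and 24 h 7 of 8 (76.4%, 71.3% and 45.6%).

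At 96 h against 0 h, where Klf6 itself did not pass the test, 5 of 8 relatives differed from it (background 16.6%). Klf2 (-4.00), Klf4 (-3.88), Klf9 (-2.50) and Klf10 (-4.23) were lower relative to Klf6 and Klf5 was higher. Klf3 (-0.15, 95% interval -0.98 to 0.68), Klf13 (-0.61, -1.30 to 0.08) and Klf7 (-0.94, -1.71 to -0.17, limma, adjusted p = 0.113) were not called different. From 6 h to 96 h, the fall of Klf6 was larger than the changes of Klf3 (difference 1.69, 95% interval 0.95 to 2.44), Klf4 (0.98, 0.14 to 1.82), Klf7 (1.28, 0.59 to 1.97) and Klf13 (2.13, 1.51 to 2.75), among 6 of 8 called, where 86.8% of all genes were called. It was not called different from the change of Klf2 (0.57, 95% interval -0.20 to 1.34). The values for Klf5 depend on the count added before the logarithm and are not given.

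**Figure D5:**
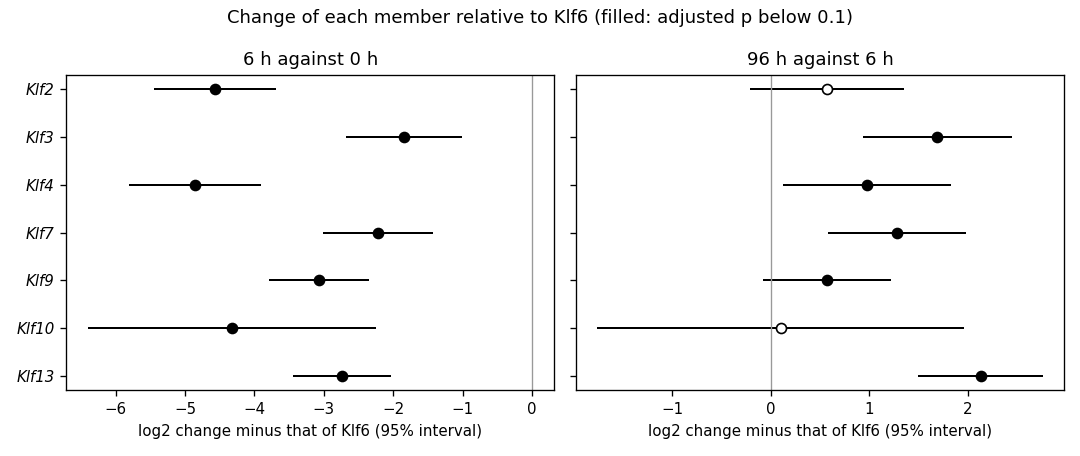
Points give the log2 change of 7 relatives minus that of Klf6, with 95% intervals as lines, for 6 h against 0 h and 96 h against 6 h, filled where the adjusted p (limma) was below 0.1. At 6 h against 0 h all 7 points lie between -4.86 and -1.85, and at 96 h against 6 h all 7 lie at or above 0.10.

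The remaining Klf genes contributed little. Klf1, Klf8 and Klf17 had no counts in any of the 19 samples, at a floor of 0.386 to 1.5 CPM, and Klf14 did not exceed 0.192 CPM. Klf11, Klf12, Klf15 and Klf16 were tested, and none was called against 0 h at any timepoint. Klf16, at 14.6 and 22.6 CPM at 0 h and 34.5 to 67.8 CPM at 6 h, was lower at 96 h than at 6 h (log2 -1.66 ± 0.56, edgeR, adjusted p = 0.0728).

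The Sp factors share the zinc fingers and GC-box recognition of the KLF proteins. Of 9 Sp genes, 4 were tested, and Sp5 to Sp9 had no counts. None was called before 96 h against 0 h, and at 96 h 3 of 4 were lower, against 5.03% of all genes. Sp1 was at 136 and 142 CPM at 0 h and at 81.7, 68.6 and 49.5 CPM at 96 h (log2 -1.07 ± 0.29, edgeR, adjusted p = 0.0315). Sp3 fell by 2.16 on the log2 scale (SE 0.54, edgeR, adjusted p = 0.0181), and Sp4, at 7.03 and 22.3 CPM at 0 h, had 0 counts in all 3 samples of 96 h (adjusted p = 0.0192). From 3 h to 6 h, the step at which Klf3 and Klf6 rose, Sp1 rose as well (log2 1.11 ± 0.27, edgeR, adjusted p = 0.0288).

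The Erk5 kinase cascade and MEF2 factors are the classical inducers of Klf2 and Klf4 in endothelium. Of 7 genes on this route, Mef2d was called higher at all 6 timepoints, from 21.1 and 61.4 CPM at 0 h to 221, 268 and 238 CPM at 3 h (log2 2.54 ± 0.37, edgeR, adjusted p = 0.000515) and 118, 82.7 and 90.1 CPM at 96 h (1.22 ± 0.35, adjusted p = 0.0374). Mef2c was lower at 18 h (log2 -3.95 ± 1.44, edgeR, adjusted p = 0.09), and the other 5 genes were not called against 0 h.

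Genes listed as targets of KLF6 moved in both directions. Cdkn1a, which encodes the cell cycle inhibitor p21, was at 59.3 and 74.2 CPM at 0 h and at 311 to 542 CPM at 6 h, 1560 and 2020 CPM at 24 h and 1420 to 1600 CPM at 96 h. It was higher at all 6 timepoints (log2 2.71 ± 0.32 at 6 h, edgeR, adjusted p = 3.62e-05; 4.48 ± 0.35 at 96 h, adjusted p = 4.84e-07), also at 96 h, where the Klf6 samples overlapped with those of 0 h. Col1a1, a chain of type I collagen, was lower at 6, 12 and 18 h and higher at 96 h, where it was at 1160 to 1570 CPM against 447 and 161 CPM at 0 h (log2 2.22 ± 0.40, edgeR, adjusted p = 0.0015). At 12 h, when Klf6 was at 1120 to 1990 CPM, Col1a1 was at 52.1 to 87.5 CPM (log2 -2.02 ± 0.36, adjusted p = 0.00104). The TGF beta receptors were lower: Tgfbr2 at 6, 12, 18, 24 and 96 h and Tgfbr1 at 12, 18 and 96 h, with Eng, a coreceptor, lower at 12 and 18 h. Tgfb1 and Plau were not called. In all, 1 of 7 listed targets was higher and 4 were lower at 12 h, where 8.6% of all genes were called higher and 9.1% lower. At 96 h, 2 of the 7 were higher and 2 lower, against 5.83% and 5.03% of all genes. The part of KLF6 in the levels of these genes was not tested.

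Of 3 genes known as KLF2 and KLF4 targets in endothelium, Thbd (thrombomodulin) and S1pr1 were tested. Thbd was at 65.3 and 69.7 CPM at 0 h and at 244, 276 and 402 CPM at 96 h (log2 2.19 ± 0.37, edgeR, adjusted p = 0.00106), and was also higher at 12 and 18 h. S1pr1, a sphingosine 1-phosphate receptor, was higher at 12 h (log2 2.45 ± 0.78, edgeR, adjusted p = 0.0469) and 18 h (2.90 ± 0.80, adjusted p = 0.0242). The background share of higher calls was 8.6% at 12 h and 7.64% at 18 h. S1pr1 was at 5.02 and 20.1 CPM at 0 h. In M1, with the highest endothelial sums and no 0 h sample, it was at 115 CPM (12 h) and 177 CPM (18 h). In M2 and M3 it was at 46.3 and 47.9 CPM at 12 h, and 36.8 and 71.3 CPM at 18 h. Thbd, by contrast, was lowest in M1 at these timepoints. The mean of Thbd was highest at 96 h, where the means of Klf2 and Klf4 were lowest. The part of KLF2 and KLF4 in the levels of Thbd and S1pr1 was not tested.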

How the data were processed

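RNASeq libraries of 3' ends (QuantSeq FWD, without molecular identifiers) were sequenced single-end from 19 samples of cultured or uncultured HSCs. The authors deposited raw counts per gene, whole numbers without normalization. Per the submitters' notes and methods, reads were trimmed, mapped to GRCm38 (mm10) with STAR and assembled with StringTie; the counting tool, its strand setting and the annotation release are not given in the sources used here. Symbols and positions came from GENCODE M21 and promoters from RefSeq (GRCm38.p6). Of 55487 identifiers, 55141 had a symbol, and 0 columns were left without a sample.

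The counts were analysed in R 4.3.3. Genes that passed edgeR's (4.0.16) filterByExpr (15138) entered a single quasi-likelihood fit of all samples by timepoint, with TMM factors and no covariates, and were compared by its F test. CPM are TMM-scaled. Ratios to Klf6 were fitted with limma 3.58.1 on log2 CPM (prior count 2). Depth was 2073171 to 7690892 counts (median 4954915), and a floor of 3 counts was 0.386 to 1.5 CPM, which covers counting error only. The methods call the repeats independent, each standing for 2 technical repeats; the labels number them M1 to M3, without saying what the number marks, and give M1 and M3 one isolation date and M2 another. P-values measure the spread between these samples. No libraries were identical (r of 0.768 to 0.868 within timepoints). With 1 sample per timepoint at 1 of the 2 dates, no comparison could be made within that date.

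The alternatives were scaling by library size, DESeq2 1.42.0, no filter, the repeat number as a block, the date as a covariate, only the groups compared, other thresholds, another prior count and leaving out each sample. The scripts were tested on simulated data. The members, the gene lists and the tests were chosen with earlier results of these data known. All 9 members are named. From the other lists, genes called against 0 h or without counts are named, at most 4 per list by size of change, as are the genes of at least 50 CPM with the highest Pearson r to a member. The likest gene of Klf13 is not reported here. Genes named beyond that rule (Eng, Cdh5, Klf14, Fos, Egr1, Nos3, Stab2, Lyve1, Klf11, Klf12, Klf15, Klf16, Tgfb1, Plau, Sin3a, Wwp1 and Fbxw7) were chosen after their values were seen. Values and plots were made in Python 3.11.15 with pandas 2.3.3 and matplotlib 3.10.9.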

Additional observations from a re-analysis of the deposited data

How the results depend on the processing

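No call on Klf6 was lost under any alternative. Fits with 1 sample left out aside, the number of members called kept within 1.5 times of the reported count except in 7 cases. DESeq2 called 1 at 12 h against 0 h and 1 at 6 h against 3 h. It also called 1 at 12 h against 6 h and 3 at 96 h against 24 h. Without the filter, 1 was called at 6 h against 3 h. At an adjusted p below 0.05, 3 were called at 6 h against 0 h. Without a fold limit, 2 were called at 12 h against 6 h. With 1 sample left out, the counts were against 0 h 1 to 3 (3 h), 3 to 6 (6 h), 1 to 3 (18 h) and 3 to 6 (96 h), 1 to 2 at 6 h against 3 h and 2 to 5 at 96 h against 24 h. Samples of different timepoints can share a repeat number, and those of M1 and M3 also share an isolation date. Residuals from the timepoint means correlated at 0.0143 on average where the number was shared (51 pairs) and at -0.00704 where it was not (103 pairs). The latter include pairs of the same date. Of 19 samples, 13 correlated best with their own number. Residuals cancel within each timepoint, so these averages are tied to each other and carry no test. With the number as a replicate block, the calls against 0 h came to 2 members (3 h), 5 (6 h), 2 (18 h) and 4 (96 h). The block ended the calls on Klf5 at 3 h and 96 h, Klf7 at 96 h and Klf9 at 18 h and no other call on a member. The sign of Klf6 at 96 h against 0 h, -0.08 and not called, was 0.07 by library size and 0.03 with the block. Scaling by library size moved the median log2 fold change of all genes from 0.00 to 0.24 at 24 h and from 0.07 to 0.22 at 96 h against 0 h, and DESeq2 moved it from 0.00 to -0.13 at 6 h and -0.15 at 12 h, and from -0.04 to -0.19 at 6 h against 3 h. The share of higher genes among all calls went from 59.4% to 71.5% (library size), 47.7% (DESeq2) or 40.9% (only the 2 groups) at 24 h, from 75.1% to 63.4% and 61.6% to 47.7% (DESeq2) at 3 h and 6 h, from 55.7% to 65.8%, 38.6% or 45.3% at 6 h against 3 h, and from 50.4% to 36.9% (library size) or 74.7% (only the 2 groups) at 96 h against 24 h. DESeq2 called 1534 genes against 844 at 3 h, 2589 against 1715 at 6 h, 2229 against 1440 at 24 h, 1338 against 680 at 6 h against 3 h, 844 against 411 at 96 h against 24 h, and 864, 424 and 229 against 278, 34 and 6 in the steps from 6 h to 24 h. With only the 2 groups, 643 genes were called at 96 h against 24 h and 7 and 0 in the steps from 12 h to 24 h. The causes of these differences were not tested. At 2 samples for 0 h and 24 h, the spread is taken from all groups, and a sample left alone is assumed to vary like the others.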

Other observations

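Of 9 genes for corepressors and coactivators, Hdac1, a histone deacetylase of the Sin3 complex, was the 1 gene called against 0 h, at 6 h and 12 h, where 11.3% and 17.7% of all genes were called. It was at 75.8 and 73.7 CPM at 0 h, 35.9, 38.7 and 26.2 CPM at 6 h and 27.8, 16.9 and 25.9 CPM at 12 h (log2 -1.15 ± 0.39, edgeR, adjusted p = 0.0801, and -1.67 ± 0.39, adjusted p = 0.00774). All samples of 6 and 12 h lay below those of 0 h, at the timepoints at which Klf6 was highest. At 96 h, Hdac1 was at 75.7, 69.2 and 108 CPM. The share of 1 in 9 was not above that background. Of 3 ubiquitin ligases that act on KLF proteins, Smurf1 was at 44.2 and 42.9 CPM at 0 h and was higher at 12 h (165, 118 and 147 CPM, log2 1.72 ± 0.36, adjusted p = 0.00328), 18 h (1.89 ± 0.36, adjusted p = 0.00184) and 24 h (1.90 ± 0.38, adjusted p = 0.00392). Wwp1 and Fbxw7 were not called.

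The genes of at least 50 CPM whose log2 CPM over the 19 samples were most like Klf6 were Ccl7 (Pearson r = 0.961), a chemokine, Clic4 (0.957), an intracellular chloride channel, Gas5 (0.956), a noncoding RNA, Myc (0.952), a transcription factor of growth, and Gtpbp4 (0.948), a GTPase of ribosome assembly. The likest gene was Ankrd11 for Klf3 (0.924), Pfkfb3 for Klf5 (0.86), Ppp1r15b for Klf7 (0.945), H2-D1 for Klf9 (0.969) and C1s1 for Klf10 (0.871). Among the members, Klf6 was most like Klf7 (0.842), and Klf9 like Klf13 (0.838). These values describe samples that share 7 timepoints and carry no test.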
